A study of Mus musculus with 6 samples.

Results

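Amino acid transporters are the membrane proteins that carry amino acids across the plasma membrane and the membranes of lysosomes and vesicles. They were taken here as the genes whose symbol starts with Slc1a, Slc3a, Slc6a, Slc7a, Slc36a, Slc38a or Slc43a, without the creatine transporter Slc6a8. The array gave 19938 genes at least 1 transcript cluster that named no other gene, and 63 of these met the rule. A transcript cluster is a group of probes read together, and for the 2 genes with 2 clusters, Slc38a1 and Slc38a9, the cluster with the higher mean over all arrays was used. The symbols Slc7a6os and Slc6a19os also met the rule, but they name genes on the strand opposite to a transporter gene, so 61 of the 63 are transporter genes.

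HBC and LBC are populations of immortalized stromal vascular cells that were taken from inguinal white adipose tissue of male mice (129SVE), kept for high or low binding of FcsFNDC4, an Fc fusion of the soluble part of FNDC4. Both were sorted and passaged up to passage 20 and expanded in the same medium, high-glucose DMEM F12 with serum and GlutaMax, a stable source of glutamine, and no other agent separated the groups. RNA of 3 technical replicates of HBC and 3 of LBC was read on 1 array each. Each group is 1 sorted population of 1 immortalized line, so all p-values and intervals below describe the spread between technical replicates and not between independent sorts. The age of the mice is not stated in the labels. The arrays were grouped by sample title and cell phenotype, and the source name field of LBC replicates 2 and 3, which says HBC, was not followed.

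The values were intensities on a linear scale, with array medians of 122 to 135, and were compared as log2(intensity + 16) with limma over all 19938 genes. A gene was called higher or lower in HBC at an adjusted p under 0.05 (Benjamini-Hochberg, over all genes) together with a fold above 1.5, which is 0.58 on the log2 scale. A log2 fold change is HBC minus LBC throughout, and intensities of different genes cannot be set against each other because their probes differ. Of 14 markers of the labelled preadipocytes and fibroblasts, 11 had means above 100 in both groups, among them Pdgfra, a receptor of mesenchymal progenitors (4096 in HBC and 3166 in LBC). The collagen gene Col3a1 and the receptor gene Eng were called higher and Dcn, which encodes a matrix proteoglycan, lower. At an adjusted p under 0.05 alone 6 of the 14 were higher and 3 lower, against 6.93% and 11.4% of all genes. Of 9 adipocyte markers 6 had means above 100 in both groups, none was called and 3 were higher at an adjusted p under 0.05 (6.93% of all genes). Their summed intensity was 4709.9 to 4883 in HBC and 3589 to 4186 in LBC, which do not overlap. The brightest genes weigh most in such a sum, and the median log2 fold change of the 9 was -0.0051 (-0.07 over all genes). The adipocyte hormone gene Lep was dim in both groups (40.8 and 46.1). The part of these marker differences in the results below was not tested. None of 14 leukocyte, 10 endothelial or 8 epithelial markers was called, against 3.67% of all genes. Only 4, 1 and 5 of them had means above 100 in both groups, so a difference in the dim ones could be missed. At an adjusted p under 0.05 alone 1 epithelial marker was higher (6.93% of all genes).

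Transporters of the Slc7 family that exchange large neutral amino acids or cystine are light chains, which reach the cell surface bound to a heavy chain such as Slc3a2. Sodium-coupled carriers such as Slc1a5 and Slc38a2 bring in glutamine, and the light chain Slc7a5 exchanges intracellular amino acids for leucine. When amino acids run short, the transcription factor ATF4 raises the transcription of many of these genes through a short DNA motif, the amino acid response element. In adipose progenitors the imported amino acids feed protein synthesis, glutathione and the nutrient-sensing kinase complex mTORC1.

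The core letters of the response element were searched in promoters, and stretches that hold them are printed first. Promoter windows of 300 bases, from 250 before to 50 after a start site, were taken from RefSeq (GRCm38.p6), where 47 of the 63 genes had at least 1 window. The core letters TTGCATCA were searched on both strands and stood in the windows of 3 of the 47 genes (Slc7a11, Slc1a4 and Slc7a7), or 6.38%, against 1.03% of the 27025 genes with a window. The wider pattern TGATGNAAN, which takes in the reverse complement of the first wherever a further base follows, added Slc6a21 and stood in windows of 8.51% of the 47 genes against 4.5% of all. Of 29 amino acid response genes with a window, 6 held TTGCATCA, among them Vldlr. A match of letters is a description and not a site of binding. In the stretches below, read 5′ to 3′ on the strand of the gene, capitals mark TTGCATCA or its reverse complement. For Slc7a11 the stretch runs over the 250 bases before the start site, which hold both orientations, and for the others it runs from 40 bases before the motif to 10 bases after it.
Slc7a11, chr3:50443614-50443863, minus strand: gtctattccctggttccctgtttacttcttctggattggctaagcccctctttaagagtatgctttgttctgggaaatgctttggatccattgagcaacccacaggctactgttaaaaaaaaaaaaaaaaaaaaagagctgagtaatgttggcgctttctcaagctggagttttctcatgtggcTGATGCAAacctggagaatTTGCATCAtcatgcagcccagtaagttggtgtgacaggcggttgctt
Slc1a4, chr11:20332700-20332757, minus strand: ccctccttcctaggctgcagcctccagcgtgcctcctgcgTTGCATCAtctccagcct
Slc7a7, chr14:54417928-54417985, minus strand: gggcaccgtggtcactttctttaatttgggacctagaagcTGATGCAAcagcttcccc
Vldlr, chr19:27216780-27216837, plus strand: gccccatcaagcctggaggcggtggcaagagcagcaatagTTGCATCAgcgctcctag

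None of the 63 genes was called higher or lower in HBC by limma. The background was 3.67% of all genes called, 2.54% higher and 1.13% lower. A count of 0 among 63 lies close to that small share, and at an unadjusted p under 0.05 there were 15 of the 63 (23.8%) against 29.9% of all genes. The methods' t-test, after Benjamini-Hochberg adjustment and with the same fold, called 0 as well, with 14 at an unadjusted p under 0.05. It was run here over all 19938 genes, without the methods' filter of a mean intensity above 100 in both groups. The largest difference of any of the 63 was -0.52 on the log2 scale. The median log2 fold change was -0.06 over the 63 and -0.07 over all genes, and the median size of a difference, whatever its sign, was 0.10 and 0.12. Over the 29 of the 63 genes with a mean above 100 in both groups, the median log2 fold change was 0.015. It was -0.067 over all 12331 genes above that level.
The intervals say how large a difference these arrays leave room for. For 60 of the 63 genes (95.2%) the 95% interval of the log2 fold change lay within 1.5-fold in either direction, as it did for 92.4% of all genes. Slc7a8, Slc6a17 and Slc7a3 were the other 3. Part of this closeness comes from dim signal: 23 of the 63 had means in both groups at or below 83.7, the 90th percentile of the 1027 olfactory receptor genes, and the added 16 makes differences of such genes smaller. With a mean above 100 in both groups, 29 genes were left, and the interval lay within 1.5-fold for 26 of them (89.7% against 89.9% of the 12331 genes above that level).

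**Figure D1:**
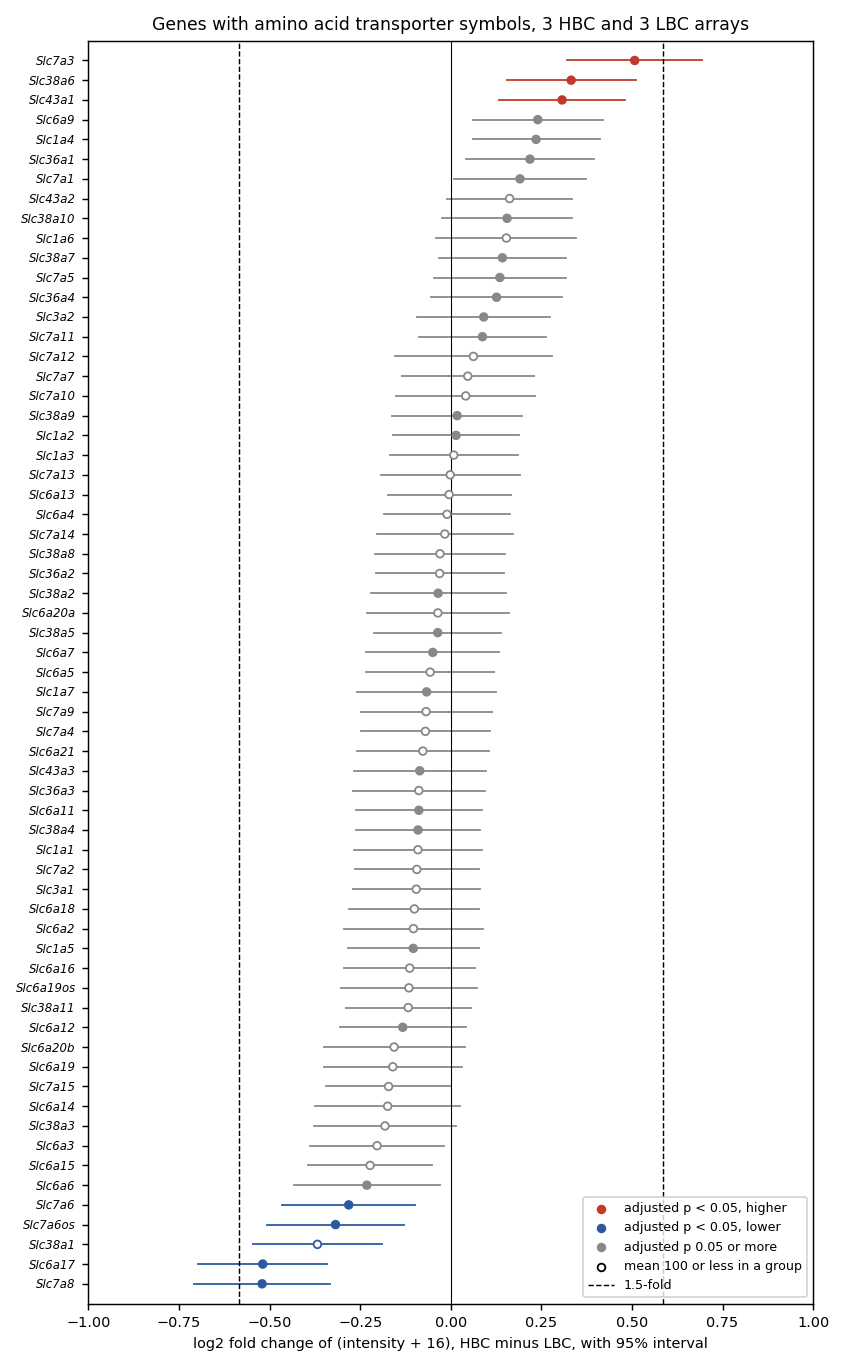
Difference between HBC and LBC for the 63 genes, as log2 fold change of intensity + 16, with the 95% interval (limma, 3 arrays against 3). The 3 genes in red and the 5 in blue had an adjusted p under 0.05, and no point lies beyond the dashed lines at 1.5-fold.

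Without the fold threshold, 8 of the 63 genes (12.7%) had an adjusted p under 0.05, a share below the background of 18.3%. Of these, 3 were higher in HBC (4.76% of the 63, against 6.93% of all genes) and 5 lower (7.94% against 11.4%). This count depended on the arrays, the scaling and the intensity filter. It was 17 without LBC replicate 3 (9 higher and 8 lower, against a background of 26.6%) and 5 without HBC replicate 1 (background 12.7%). Quantile normalization gave 10 higher and 7 lower (background 29.1%), cyclic loess 11 higher and 6 lower (27.8%), and median centring 6 higher and 4 lower (15.8%). Among genes with a mean above 100 in both groups, 11 of 29 passed, a share above the background of 29.6% at that level. With a mean above 100 in at least 1 group, 11 of 31 passed, also above the background (30.4%). The share below the background thus held only with dim genes included. The methods' t-test, run without the methods' intensity filter, left Slc6a17 alone (6.94%).
LBC replicate 3 was the brightest LBC array for many genes. Of the 29 genes with a mean above 100 in both groups it held the highest LBC value in 17 (58.6%), against 74% of all genes above that level, and HBC replicate 3 held the lowest HBC value in 17 as well, against 58.3%. Whether this spread between arrays arose in the cells or in the measurement was not tested.

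**Figure D2:**
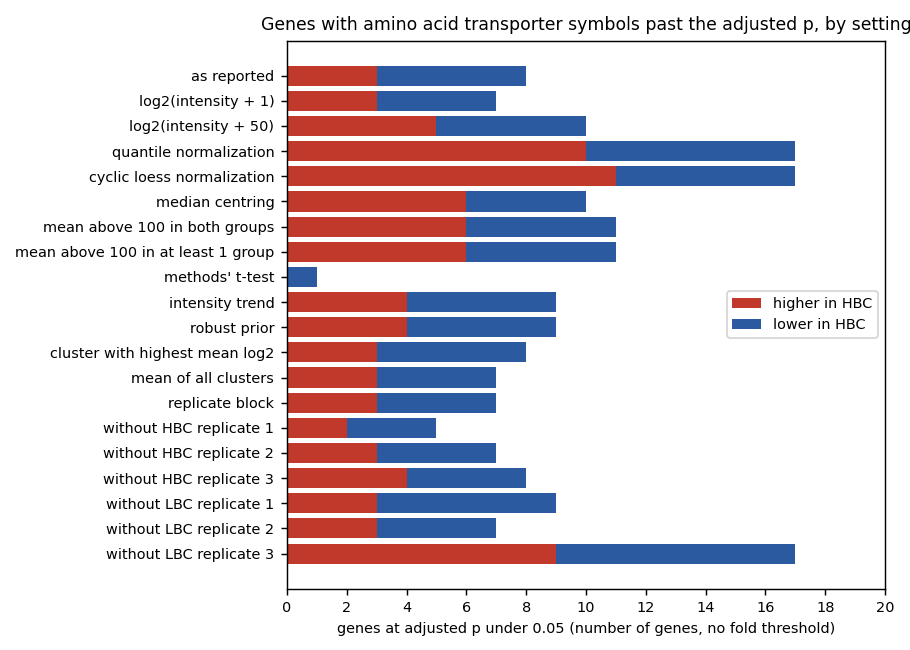
Number of the 63 genes with an adjusted p under 0.05 (no fold threshold) as reported and under 19 other settings, split into higher (red) and lower (blue) in HBC. The bars run from 1 gene with the methods' t-test to 17 after quantile or cyclic loess normalization or without LBC replicate 3.

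Among the light chains that pair with Slc3a2, Slc7a8 and Slc7a6 read lower in HBC. Slc7a8, the light chain LAT2 for small and large neutral amino acids, gave array intensities of 268, 277 and 276 for HBC, in replicate order, against 368, 373 and 465 for LBC. All HBC values lay below all LBC values, and LBC replicate 3 stood highest. The ratio of the means was 0.68 and the log2 fold change -0.52 (95% interval -0.71 to -0.33, adjusted p = 7.9e-05 by limma), just short of the fold threshold. Without LBC replicate 3 it was -0.41. Slc7a6, the light chain y+LAT2 that exchanges cationic for neutral amino acids, read 1030.2, 1052 and 912 in HBC and 1129, 1186 and 1337 in LBC. The groups did not overlap here either, with a log2 fold change of -0.28 (95% interval -0.47 to -0.10, adjusted p = 0.026 by limma), and the adjusted p was under 0.05 in 13 of 21 alternative settings. Its neighbour on the opposite strand, Slc7a6os, which encodes no transporter, read 358, 361 and 386 in HBC and 432, 426 and 537 in LBC (log2 fold change -0.32, adjusted p = 0.014 by limma). Whether probes of this pair read each other's transcript was not tested.

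The central pair of leucine import differed little between the groups. Slc3a2, the heavy chain also known as CD98, had intensities of 4357, 4553 and 3920.2 in HBC and 3687, 4027 and 4333 in LBC. The groups overlapped, with a log2 fold change of 0.091 and a 95% interval of -0.092 to 0.27. Slc7a5, the light chain LAT1, read 3551, 3729 and 3163 in HBC and 2931, 3237 and 3327 in LBC, again with overlap (log2 fold change 0.14, interval -0.047 to 0.32). Slc7a11, the cystine-glutamate exchanger xCT whose promoter is printed above, read 903, 962 and 868 in HBC and 815, 889 and 865 in LBC. Its values overlapped too (log2 fold change 0.087, interval -0.087 to 0.26). The other 5 genes grouped here as light chains (Slc7a7, Slc7a9, Slc7a12, Slc7a13 and Slc7a15) and the second heavy chain Slc3a1 were within the range of olfactory receptor genes in both groups. Their log2 fold changes ran from -0.17 for Slc7a15 to 0.062 for Slc7a12. At such signal a difference in transcript could be made smaller or missed.

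Cationic amino acids such as arginine and lysine enter through CAT type transporters, and 5 measured genes were grouped here with that type. Slc7a3, or CAT3, had the largest value above 0 among the 63 genes, with 436, 493 and 439.7 in HBC and 330.4, 341 and 279 in LBC. Every HBC array lay above every LBC array, and LBC replicate 3 stood lowest, the reverse of its place for Slc7a8. The ratio of the means was 1.44 and the log2 fold change 0.51 (95% interval 0.32 to 0.69, adjusted p = 9.9e-05 by limma). After cyclic loess normalization its log2 fold change was 0.59 and it passed the fold threshold, the 1 call among the 63 genes that any setting with a fold threshold gave, and without LBC replicate 3 it was 0.42. Slc7a1, or CAT1, the widely expressed member of this type, read 1248, 1305 and 1135 in HBC and 1008, 1046 and 1172 in LBC, with overlap between HBC replicate 3 and LBC replicate 3 (log2 fold change 0.19, interval 0.0094 to 0.37, adjusted p = 0.14 by limma). Slc7a2, Slc7a4 and Slc7a14 had log2 fold changes from -0.094 to -0.017.

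**Figure D3:**
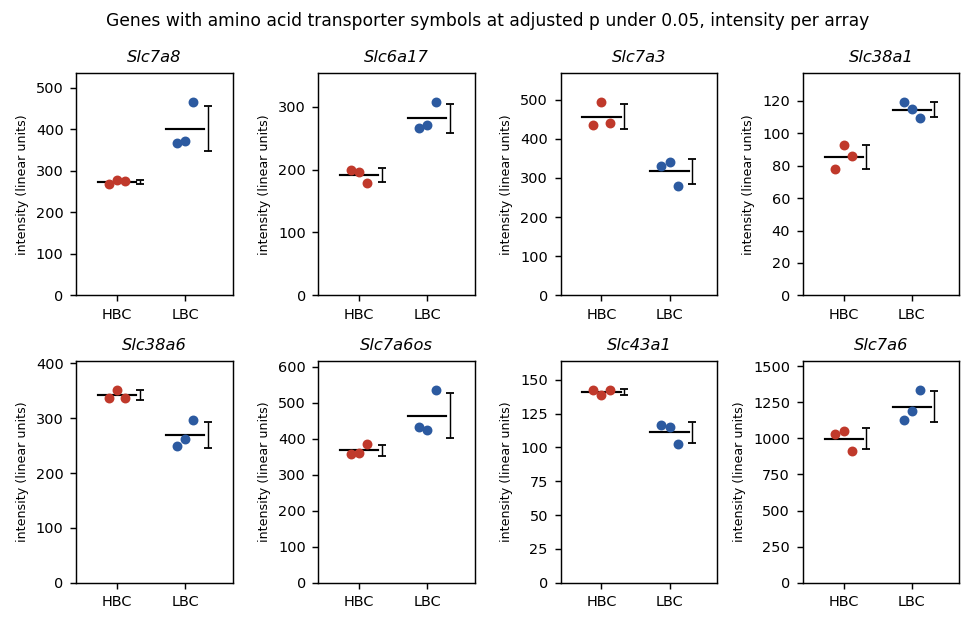
Intensity on each array (linear units, axis from 0) for the 8 genes with an adjusted p under 0.05, with HBC in red, LBC in blue, a line at the mean and a bar of 1 SD over 3 arrays. In each panel the 3 HBC points and the 3 LBC points do not overlap.

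The Slc38 family, carriers that move small neutral amino acids with sodium, held 11 measured genes, of which 2 had an adjusted p under 0.05 in opposite directions. Slc38a1, a glutamine carrier, read 77.6, 92.5 and 85.7 in HBC and 119, 115 and 109 in LBC. The groups did not overlap (log2 fold change -0.37, 95% interval -0.54 to -0.19, adjusted p = 0.0023 by limma), although the HBC values were near the range of olfactory receptor genes. Its second cluster, with means of 46.8 in HBC and 48.6 in LBC, gave -0.03, and the mean of both clusters -0.20 with an adjusted p of 0.15 by limma. Slc38a6, a less studied member of the family, read 336, 352 and 337 in HBC and 249.6, 261 and 296 in LBC. All HBC values were above all LBC values, with a log2 fold change of 0.33 (95% interval 0.15 to 0.51, adjusted p = 0.0061 by limma).
Slc38a2, the carrier SNAT2 that cells raise when amino acids are scarce, read 3997, 4089 and 3765 in HBC and 3668, 3924 and 4599 in LBC. LBC held both the lowest and the highest value, and the log2 fold change was -0.035 (interval -0.22 to 0.15). Slc38a9, a lysosomal transporter that signals arginine to mTORC1, read 525, 587 and 506 in HBC and 493, 544 and 559.9 in LBC, a log2 fold change of 0.017 (interval -0.16 to 0.20). Its groups overlapped, and its second cluster gave a log2 fold change of 0.05. Slc38a10 read 1087, 1158 and 1053 in HBC and 923, 962 and 1075 in LBC, with overlap through LBC replicate 3 (0.16, interval -0.023 to 0.33). The remaining 6 genes of the family had log2 fold changes from -0.18 for Slc38a3 to 0.14 for Slc38a7.

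Exchangers for alanine, serine and cysteine showed no called difference. Slc1a5, the glutamine exchanger ASCT2, read 1245, 1342 and 1125 in HBC and 1260.2, 1332 and 1393 in LBC. Its groups overlapped (log2 fold change -0.10, interval -0.28 to 0.077). Slc1a4, or ASCT1, whose motif lies across the annotated start site, read 995, 1071 and 957 in HBC and 809.5, 878 and 871 in LBC, with all HBC values above (log2 fold change 0.24, interval 0.061 to 0.41, adjusted p = 0.054 by limma). Slc7a10, the exchanger for serine, alanine and cysteine known from white adipocytes, averaged 98.1 in HBC and 94.9 in LBC (0.041). The glutamate and aspartate carriers Slc1a1, Slc1a2, Slc1a3, Slc1a6 and Slc1a7 ran from -0.091 to 0.15 on the log2 scale, none with an adjusted p under 0.05, and Slc1a1, Slc1a3 and Slc1a6 were within the range of olfactory receptor genes in both groups.

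Facilitated carriers of the Slc43 family and proton-coupled carriers of the Slc36 family were measured for 3 and 4 genes. Slc43a1, the leucine carrier LAT3, read 142, 139 and 143 in HBC and 117, 115 and 102 in LBC. The groups did not overlap, and the log2 fold change was 0.31 (95% interval 0.13 to 0.48, adjusted p = 0.0096 by limma). Slc43a3, which carries purine bases rather than amino acids although it belongs to the family by sequence, read 2285, 2284 and 2146 in HBC and 2164, 2339 and 2647 in LBC. Its groups overlapped (log2 fold change -0.086, interval -0.27 to 0.10). Slc43a2, or LAT4, averaged 97.4 in HBC and 85.4 in LBC (0.16). Slc36a1, a lysosomal exporter, averaged 255 and 218 (0.22, adjusted p = 0.08 by limma), and Slc36a4 872 and 801 (0.13).

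The Slc6 family holds carriers of neurotransmitters, taurine, glycine and neutral amino acids that are driven by sodium and chloride. Slc6a9, the glycine transporter GlyT1, read 1981, 2099 and 1763 in HBC and 1577, 1706 and 1647 in LBC. All HBC values lay above all LBC values, with a log2 fold change of 0.24 (interval 0.06 to 0.42, adjusted p = 0.055 by limma). Slc6a6, the taurine transporter, read 1466, 1422 and 1373 in HBC and 1484, 1540.2 and 2037 in LBC, where LBC replicate 3 stood apart (log2 fold change -0.23, interval -0.43 to -0.03, adjusted p = 0.11 by limma), and without that array the value was -0.09.
Slc6a17, a carrier of neutral amino acids into synaptic vesicles of neurons, read 199, 196 and 179 in HBC and 265, 271 and 307 in LBC. Every HBC value was below every LBC value, with a ratio of the means of 0.68 and a log2 fold change of -0.52 (95% interval -0.70 to -0.34, adjusted p = 4.3e-05 by limma). It was the 1 gene of the 63 with an adjusted p under 0.05 in each of 21 alternative settings, where its adjusted p ran from 1.5e-07 to 0.043. Among 8 neural and glial markers, 7 were not called, and at an adjusted p under 0.05 alone 2 were lower (11.4% of all genes). The 1 called lower was Snap25, a protein of vesicle fusion, with 163, 169 and 174 in HBC and 294, 295 and 333 in LBC. The summed intensity of these 8, Snap25 included, was 1160 to 1217 in HBC and 1430 to 1480 in LBC. The median log2 fold change of the 8 was -0.13 (-0.07 over all genes). Their part in the result for Slc6a17 was not tested. The other 16 Slc6 genes had log2 fold changes from -0.22 for Slc6a15 to -0.0045 for Slc6a13, and for 8 of them both group means were inside the olfactory receptor range.

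**Figure D4:**
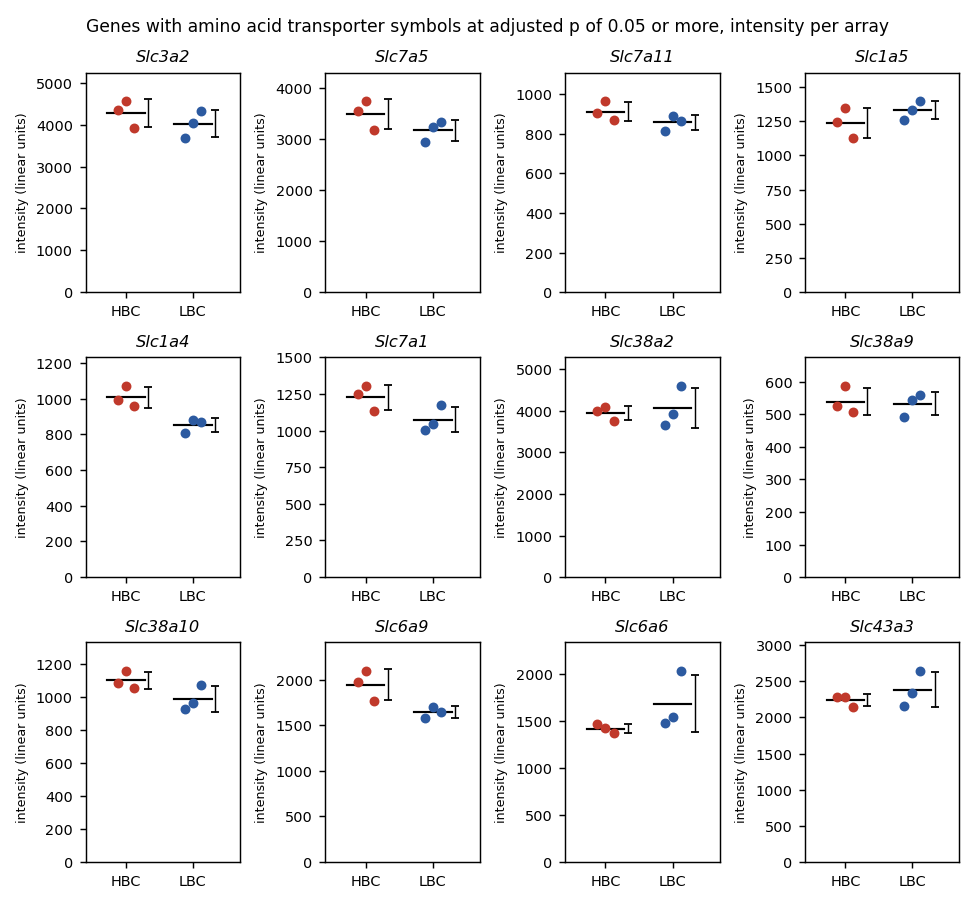
Intensity on each array (linear units, axis from 0) for 12 genes with an adjusted p of 0.05 or more, with HBC in red, LBC in blue, a line at the mean and a bar of 1 SD over 3 arrays. The groups overlap except for Slc1a4 and Slc6a9, where HBC lie above LBC, and Slc6a6, where HBC lie below.

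Over all 63 genes the groups did not overlap for 19 (30.2%), with HBC above in 8 and HBC below in 11. The background was 35.2% of all genes, 10.1% with HBC above and 25.1% with HBC below. The 8 genes with HBC above were Slc7a3, Slc38a6, Slc43a1, Slc6a9, Slc1a4, Slc36a1, Slc43a2 and Slc38a7. Their log2 fold changes ran from 0.14 for Slc38a7 to 0.51 for Slc7a3. HBC lay below in Slc7a8, Slc6a17, Slc38a1, Slc7a6os, Slc7a6, Slc6a6, Slc6a15, Slc7a15, Slc38a11, Slc7a2 and Slc38a4. Log2 fold changes of these 11 ran from -0.52 for Slc7a8 to -0.09 for Slc38a4.

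The genes around the transporters, those of amino acid sensing, metabolism and other carriers, held a few called differences. Over 7 lists with 168 measured genes, 7 were higher in HBC and 2 lower, a share of 5.36% against the background of 3.67%. Of all genes, 2.54% were called higher and 1.13% lower. The median log2 fold change of the 168 was -0.06 (-0.07 over all genes).
Of 31 amino acid response genes, 3 were higher and 28 were not called, with a median log2 fold change of 0.02. Without the fold threshold 6 were higher and 2 lower at an adjusted p under 0.05 by limma, beside 6.93% and 11.4% of all genes. Atf4, the transcription factor of the pathway, averaged 2057 in HBC and 2017 in LBC (0.029), and Asns, its target asparagine synthetase, 5534 and 5559 (-0.0052). Vldlr, a lipoprotein receptor whose promoter stretch is printed above, read 529, 582 and 519.8 in HBC and 302, 385 and 301 in LBC, which gave 0.70 on the log2 scale (adjusted p = 1.1e-06 by limma, and 0.057 by the methods' t-test). Atf5, a transcription factor of stress responses, read 999, 1071 and 913 in HBC and 613, 665 and 659 in LBC (0.61, adjusted p = 3.4e-06 by limma), and fell short of the fold threshold without HBC replicate 2 (0.55) or LBC replicate 1 (0.57) and, by a narrow margin, with 50 added in place of 16. The third was Eif2ak2, the kinase PKR, an interferon-stimulated gene that the list held beside the kinase genes Eif2ak1, Eif2ak3 and Eif2ak4, which were not called. Eif2ak2 read 1408, 1658 and 1352 in HBC and 468, 474 and 457 in LBC (1.62, adjusted p = 3.9e-15 by limma). Whether amino acid supply had a part in its difference was not tested. The kinase that senses uncharged transfer RNA, Eif2ak4, averaged 340.0 in HBC and 390.4 in LBC (-0.19). None of 17 cytosolic aminoacyl-tRNA synthetases was called at the fold threshold. An adjusted p under 0.05 by limma was reached by 2, both lower in HBC, against 11.4% of all genes.

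Of 35 genes of amino acid sensing by mTORC1, Deptor was the 1 called, and the list's median was -0.04. At an adjusted p under 0.05 alone 2 were higher and 3 lower, against 6.93% and 11.4% of all genes. Deptor, an inhibitory partner of mTOR, read 789, 835 and 787 in HBC and 190.0, 224 and 225 in LBC. The lowest HBC value was above the highest LBC value, with a ratio of the means of 3.77 and a log2 fold change of 1.84 (95% interval 1.66 to 2.02, adjusted p = 1.2e-16 by limma). The arginine sensor gene Castor1 averaged 217 in HBC and 271 in LBC (-0.30), Castor2 212 and 299 (-0.46), and the leucine sensor gene Sesn2 490.1 and 387 (0.33), each at an adjusted p under 0.05 by limma and below the fold threshold.

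Among 19 genes of cysteine and glutathione metabolism, 2 were higher, none was lower and the median was 0.12. At an adjusted p under 0.05 alone 6 were higher and 1 lower, against 6.93% and 11.4% of all genes. Ggt5, an enzyme that cleaves glutathione conjugates outside the cell, read 260.0, 261 and 246 in HBC and 73.3, 69.9 and 65.0 in LBC (1.67, adjusted p = 5.4e-16 by limma). Its LBC values fell inside the olfactory receptor range, so the size of the ratio of 3.69 is uncertain. Cdo1, the enzyme that oxidizes cysteine, read 128, 126 and 118 in HBC and 68.1, 74.2 and 74.4 in LBC (0.67, adjusted p = 3.7e-07 by limma), also from an LBC level in that range, and with 50 added in place of 16 the difference was 0.51 and not called. Gclc and Gclm, the subunits of the enzyme that starts glutathione synthesis, had log2 fold changes of -0.20 and -0.17, and Nqo1, a target of the oxidative stress factor NRF2, one of 0.55 (adjusted p = 3.5e-05 by limma), below the fold threshold.

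Of 20 genes of glutamine, glutamate and aspartate metabolism, Ppat was the 1 called and the median was -0.08. At an adjusted p under 0.05 alone 2 were higher and 5 lower, against 6.93% and 11.4% of all genes. Ppat, the enzyme that uses glutamine to start purine synthesis, read 598, 648 and 552 in HBC and 829, 851 and 1114 in LBC (-0.61, adjusted p = 2.4e-05 by limma, and 0.11 by the methods' t-test). The call was lost when LBC replicate 3 (-0.48) or HBC replicate 3 (-0.56) was left out, and after cyclic loess normalization (-0.54) or median centring (-0.57). The enzymes of pyrimidine synthesis that use glutamine, Ctps and Cad, had log2 fold changes of -0.53 and -0.51, and Glul, glutamine synthetase, -0.38, each at an adjusted p under 0.05 by limma and below the fold threshold. The second CTP synthase gene, Ctps2, averaged 1187 in HBC and 1021 in LBC, with all HBC values above (0.22, adjusted p = 0.083 by limma). The 2 that were higher at an adjusted p under 0.05 were Gfpt2, which makes glucosamine phosphate from glutamine (0.38), and Glud1, glutamate dehydrogenase (0.29). None of 27 genes of branched-chain and aromatic amino acid breakdown was called, with a median of -0.10, and 2 were higher and 3 lower at an adjusted p under 0.05 by limma, a share close to the 18.3% of all genes.

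Among 25 amino acid and peptide carriers of other families, 1 was higher and 1 lower, with a median of -0.07. At an adjusted p under 0.05 alone 4 were higher and 2 lower, against 6.93% and 11.4% of all genes. Slc25a12, the mitochondrial carrier that exports aspartate for glutamate, read 1489, 1603 and 1406 in HBC and 736, 778 and 915 in LBC. All HBC values were above all LBC values (ratio of the means 1.85, log2 fold change 0.88, adjusted p = 9.0e-09 by limma). Its close relative Slc25a13 read 518, 516 and 509.7 in HBC and 678, 695 and 832 in LBC, which is lower in every HBC array (-0.50, adjusted p = 1.1e-04 by limma) without passing the fold threshold. Slc17a6, the vesicular glutamate transporter VGLUT2 of neurons, read 397, 400.5 and 384 in HBC and 702, 752 and 953 in LBC. It was called lower (ratio of the means 0.49, log2 fold change -0.99, adjusted p = 2.3e-09 by limma), as was Snap25, the 1 called of the 8 neural and glial markers above.

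**Figure D5:**
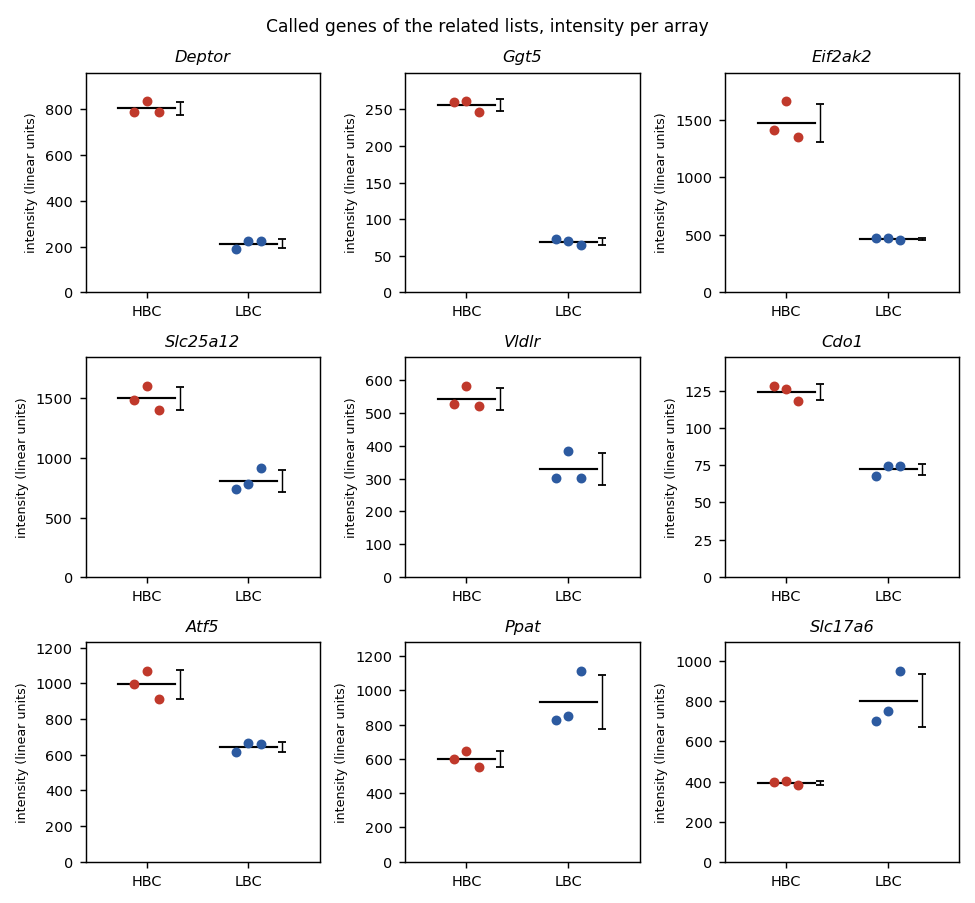
Intensity on each array (linear units, axis from 0) for the 9 called genes among 168 related genes, with HBC in red, LBC in blue, a line at the mean and a bar of 1 SD over 3 arrays. HBC lie above LBC for 7 genes and below for Slc17a6 and Ppat.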

How the data were processed

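The authors deposited 1 linear intensity per transcript cluster and array. The submitters' processing notes name Affymetrix Expression Console; how clusters were summarised and whether arrays were scaled was not given in the sources used here, nor was a version. Symbols came from the platform annotation, in which 21789 of 35556 clusters carried 1 symbol; no cluster was shared by one of the 63 genes and another gene, and all 63 matched RefSeq (GRCm38.p6) by gene identifier.

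For each gene the cluster with the highest mean over 6 arrays was used, giving 19938 genes. HBC and LBC (3 arrays each) were compared on log2(intensity + 16) by lmFit and eBayes of limma 3.58.1 (R 4.3.3), with p-values adjusted over all genes and without a replicate block; prior and residual degrees of freedom were 24.9 and 4. The code was tested on simulated data. The genes, lists, thresholds and tests were chosen with earlier results of these data known. Named with values were genes at an adjusted p under 0.05 with a mean above 100 in a group, the 10 brightest, and Slc3a2, Slc7a5, Slc7a11, Slc1a5, Slc38a2, Slc38a9 and Slc7a1, with called genes and up to 4 others of each related list. Some genes beyond this rule (such as Slc1a4, printed for its promoter motif) were named after their values were seen. Alternatives were an added 1 or 50, 3 scalings, 2 intensity filters, the methods' t-test, 2 variance priors, 2 cluster choices, 2 fold thresholds, a replicate block and leaving out each array. Intervals cover the spread between arrays, whose number limits the precision. Protein sequences were not used here.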

Additional observations from a re-analysis of the deposited data

How the results depend on the processing

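None of the 63 genes was called in 19 of 21 alternative settings; cyclic loess normalization gave 1 higher (Slc7a3), and no fold threshold gave 3 higher and 5 lower (Slc7a6os among the latter). Leaving out each array in turn gave 0 higher and 0 lower. The 9 called genes of the related lists became 39 without a fold threshold and 3 at a fold above 2, and 8 to 10 when an array was left out. In combinations chosen after seeing the data, the 8 of the 63 genes with an adjusted p under 0.05 became 17 after quantile normalization, 17 after cyclic loess normalization and 1 with the methods' t-test, and ran from 5 (without HBC replicate 1) to 17 (without LBC replicate 3). Slc38a2 turned to 0.0094 after median centring and ran from -0.11 to 0.057 when an array was left out, and Slc38a9 from -0.044 to 0.061. Over all 63 genes, 21 took the other sign in at least 1 setting, each with a reported size of at most 0.077, and so did 46 of the 168 related genes, Atf4 and Asns among them, none of either set with an adjusted p under 0.05 as reported. For 28 genes (those that the naming rule gives and the called related genes) there were 585 values. Of these, 556 kept their direction and call, 16 lost a call, 9 gained one and 4 turned. Only the called related genes could lose a call, because none of the 63 genes was called. Dropping the fold threshold gave 8 of the gained calls by rule, and Slc7a3 after cyclic loess normalization was the other. Some losses came from raising the fold to 2. The cause of the remaining changes was not tested. The shared replicate numbers showed no pairing, since the correlations between deviations of equally numbered HBC and LBC arrays were -0.096, -0.24 and -0.50. Between arrays of unlike number they ran from -0.47 (HBC 2 with LBC 1) to 0.49 (HBC 3 with LBC 1), and the source of this was not tested. With the replicate block there were 0 of the 63 genes and 9 related genes called, with 7 of the 63 at an adjusted p under 0.05. Dim signal limits what 23 of the 63 genes could show.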
